A study of Mus musculus with 4 samples.

Results

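Autophagy is the route by which a cell wraps part of its own content in a double membrane and delivers it to the lysosome for breakdown. The ULK1 kinase complex starts the process, a class III PI3-kinase complex marks the membrane with PI3P, WIPI proteins read that lipid, ATG9 and ATG2 bring further lipid, and ubiquitin-like conjugation enzymes attach proteins of the LC3 and GABARAP family to the growing membrane. Receptors such as NBR1 tie cargo to LC3, and in dendritic cells the same machinery is known to bring material to MHC class II compartments. The genes described here are those named Atg plus a digit in the array's platform annotation, together with 20 further genes of the machinery and its receptors. Of these 20, Optn was not analysed here, which left 37 genes of 18194 in all. Each gene was read by 1 probe set, selected on the highest mean over the 4 arrays, so the mean levels given are descriptions that come from the choice itself. That choice took no account of which arrays had received SAHA.

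RNA was measured on 4 Affymetrix arrays of dendritic cells grown from bone marrow of C57BL/6 mice, 2 arrays of cells given the diluent (control) and 2 of cells given SAHA for 12 hours. SAHA (vorinostat) inhibits histone deacetylases, and its dose is written in the labels as 500 nm. Marrow from at least 3 mice per experiment was grown for 7 days in GM-CSF plus IL-4 (10 ng/ml each), and CD11c-positive cells were then selected to a stated purity of 95%. The labels call both arrays of a group biological replicates but do not say whether these were separate cultures or mice, so what the p-values measure is the spread from array to array.

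All values are log2 units as deposited, and a change is the SAHA mean minus the control mean. Of 9 dendritic cell markers, Itgax (CD11c) was at 12.4 to 13.4 and Cd74 at 14.2, Flt3 at 6.72 to 7.48 and Zbtb46 at 7.76 to 7.93, and their summed level lay between 15.54 and 15.66. Among them Irf4 was higher with SAHA (0.81, limma adjusted p = 0.0431), while Ccr7 had -0.49 without passing the threshold (adjusted p = 0.118). Cd209a, a marker of some monocyte-derived dendritic cells, was near the bottom of the scale at 4.47 to 4.68. Macrophage markers were also high, with a summed level of 14.99 to 15.21 over 6 genes, none of which passed the threshold for a change. All 6 had a change below 0, and in 4 both SAHA arrays lay below both control arrays, against 29.6% of all genes. Mertk came closest to the threshold, with -0.92 (adjusted p = 0.0509). Summed B, T and NK cell markers reached at most 8.22. The neutrophil list of 8 genes had a summed level of 11.55 and 11.62 in control and of 10.91 and 10.99 in SAHA-treated cells, and 5 of its genes were lower and 1, Prtn3, was higher. In bulk RNA, fewer cells of a type and less RNA per cell cannot be told apart, and the part of this difference in the values below was not tested.

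None of the 37 autophagy genes passed the threshold for a difference between SAHA and control (limma, Benjamini-Hochberg adjusted p under 0.05 over 18194 genes), against 405 or 2.23% of all genes, 1.52% on the higher and 0.709% on the lower side. At an unadjusted p under 0.05 there were 17 of the 37 (45.9%), 15 higher and 2 lower, against 18.1% of all genes, 1668 higher and 1619 lower. The smallest adjusted p was 0.0701, for Wipi2. Most of the changes were small and above 0. Their median was 0.27, against -0.05 over all genes, and 30 of the 37 were above 0. In 24 genes (64.9%) both SAHA arrays lay above both control arrays, against 21.1% of all genes, and in 4 (10.8%) both lay below, against 29.6%. The chosen probe sets of 35 autophagy genes had a mean signal above 6.47, the median over genes, which ranks signals and not amounts of RNA. Among the 9097 genes above that signal the median change was 0.03, and 31.2% had both SAHA arrays above control. The 35 autophagy genes among them had a median of 0.29 and 68.6%. An unadjusted p under 0.05 was found for 25.3% of the 9097 and for 48.6% of the 35. These are descriptions of a set proposed with results of these arrays in view, and no test was made over the set.

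**Figure D1:**
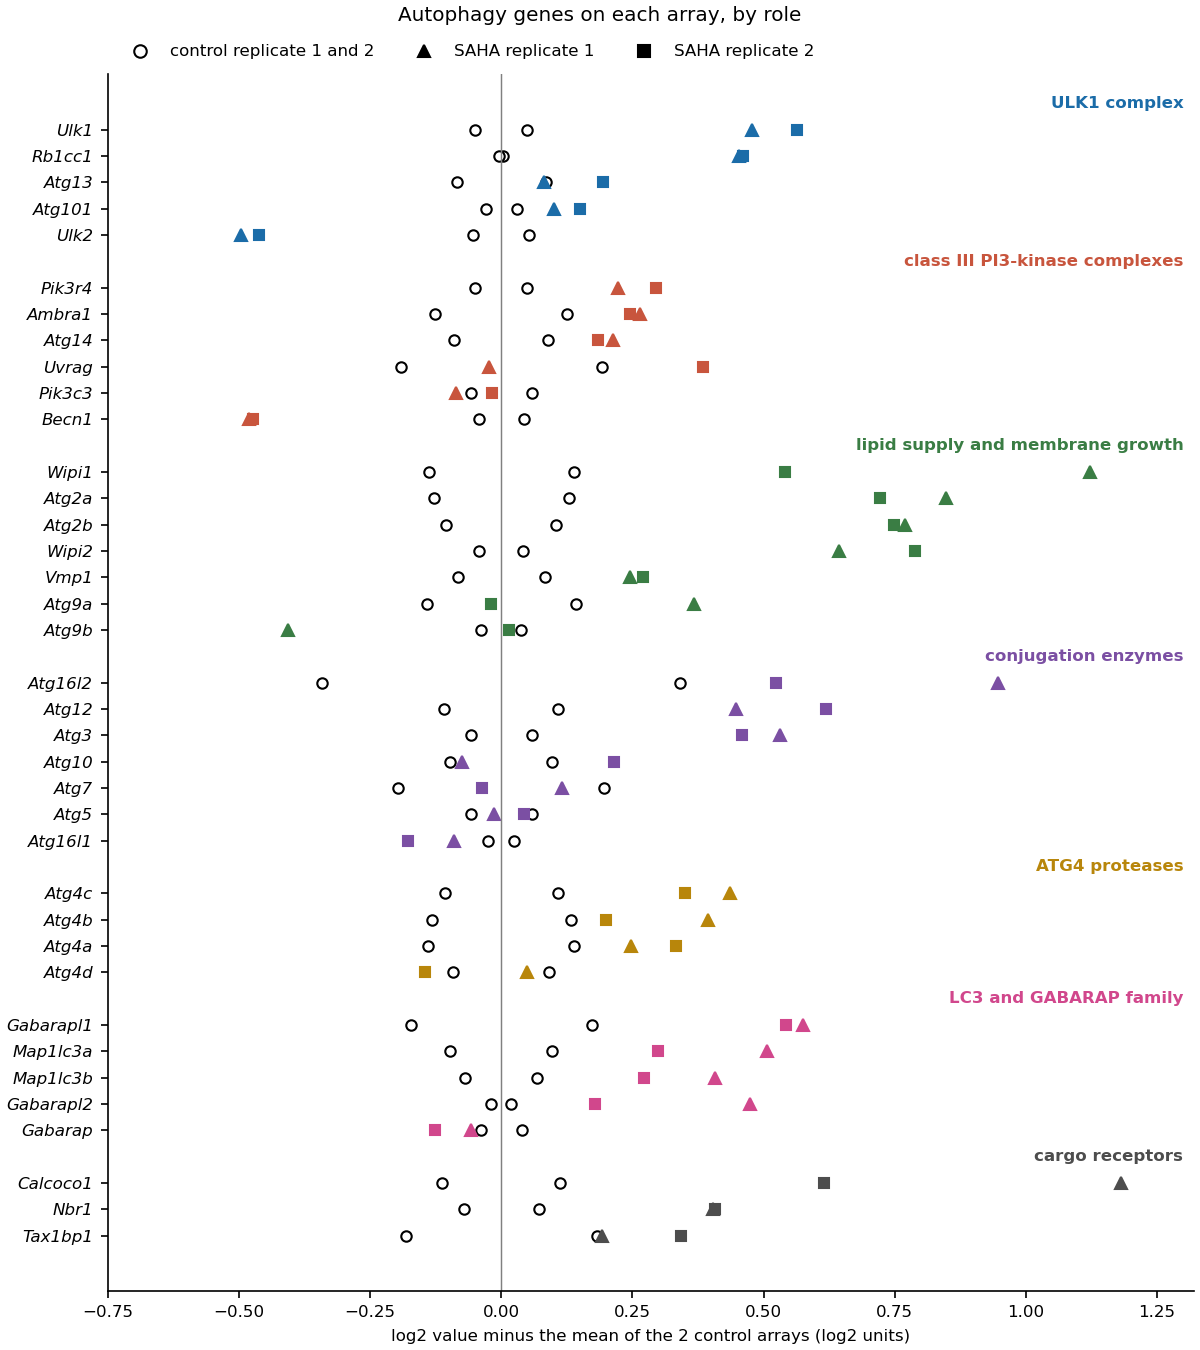
Log2 value of each of the 37 genes on each array, minus the mean of the 2 control arrays of that gene (horizontal axis, log2 units), grouped by role. Open circles are the control arrays, triangles SAHA replicate 1 and squares SAHA replicate 2. Both SAHA arrays lie to the right of both control arrays in 24 genes and to the left in 4, which are Ulk2, Becn1, Atg16l1 and Gabarap.

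The shift was alike on both SAHA arrays. The median gene lay 0.26 above its control mean on SAHA replicate 1 and 0.27 above it on SAHA replicate 2, with 28 and 29 of the 37 genes above that mean. Over all genes the same medians were -0.06 and -0.03.

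The 7 genes of lipid supply and growth of the isolation membrane had a median change of 0.72, against -0.05 over all genes. In 5 of them both SAHA arrays lay above control, against 21.1% of all genes. The steps were not tested against each other, and for Wipi1, Wipi2 and Atg2b the value depends on the probe set, as given further on. Atg2a and Atg2b encode the 2 proteins of the mammalian ATG2 family, which move lipid from the endoplasmic reticulum to the growing membrane. Atg2a stood at 7.76 and 7.50 in control and at 8.48 and 8.35 with SAHA. Atg2b stood at 7.05 and 6.84 in control and at 7.72 and 7.70 with SAHA. For both genes the lowest SAHA value was above the highest control value, and the changes were 0.78 ± 0.16 (SE, adjusted p = 0.0715) and 0.76 ± 0.16 (adjusted p = 0.0705), or 1.72-fold and 1.69-fold.

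WIPI1 and WIPI2 are PI3P-binding proteins, and WIPI2 recruits ATG16L1 to the membrane. Wipi2 stood at 7.93 and 8.02 in control and at 8.62 and 8.76 with SAHA, a change of 0.72 ± 0.15 (SE, adjusted p = 0.0701). Wipi1 stood at 7.82 and 7.54 in control and at 8.80 and 8.22 with SAHA, a change of 0.83 ± 0.23 (adjusted p = 0.133). The groups did not overlap in either gene, and the SAHA arrays were farther apart in Wipi1. Vmp1, an endoplasmic reticulum scramblase needed for the isolation membrane to form, had a change of 0.26. Of the ATG9 scramblases, which travel on small vesicles, Atg9a had a change of 0.17 with overlapping groups. Atg9b was near the bottom of the scale, with 4.46 and 4.54 in control and 4.09 and 4.51 with SAHA.

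In the ULK1 complex the 2 related kinase genes lay on opposite sides of control. Ulk1 stood at 8.69 and 8.79 in control and at 9.22 and 9.31 with SAHA (change 0.52 ± 0.14, SE, adjusted p = 0.129). Ulk2 stood at 8.54 and 8.43 in control and at 7.99 and 8.02 with SAHA (change -0.48 ± 0.14, adjusted p = 0.162). Neither passed the threshold, and the difference between their changes was not tested. Rb1cc1, the FIP200 scaffold of the complex, stood at 8.32 on both control arrays and at 8.77 and 8.78 with SAHA, a change of 0.46 ± 0.14 (adjusted p = 0.164). The adaptors Atg13 and Atg101 had changes of 0.14 and 0.13.

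In the class III PI3-kinase complexes Becn1 was, beside Ulk2, the other gene on the lower side at an unadjusted p under 0.05. It encodes Beclin 1, the regulatory subunit that ATG14 or UVRAG joins. Becn1 stood at 10.72 and 10.81 in control and at 10.29 on both SAHA arrays, a change of -0.48 ± 0.12 (SE, adjusted p = 0.122). The catalytic subunit Pik3c3 (VPS34) had a change of -0.05, with a 95% interval from -0.41 to 0.30. The pseudokinase subunit Pik3r4 (VPS15) had 0.26, Atg14, which directs the complex to autophagy, 0.20, and Ambra1, a Beclin 1 partner, 0.25. Each of these 3 lay above control on both SAHA arrays, as did 21.1% of all genes. Uvrag, of the endosomal form of the complex, had 0.18 with overlapping groups.

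The conjugation enzymes were mixed, with a median of 0.07 over 7 genes. The E2-like enzyme Atg3, which passes LC3 to its lipid, stood at 11.64 and 11.76 in control and at 12.23 and 12.15 with SAHA (change 0.49 ± 0.12, SE, adjusted p = 0.0940). Atg12, the ubiquitin-like protein joined to ATG5, had a change of 0.53 ± 0.15 (adjusted p = 0.141). Its partner Atg5 had 0.02, with a 95% interval from -0.30 to 0.33, and the E1-like enzyme Atg7 had 0.04, with an interval from -0.39 to 0.47. The E2-like enzyme Atg10 had 0.07. The 2 ATG16-like genes differed in sign. Atg16l1, whose protein sets the site of LC3 lipidation, stood at 9.04 and 8.99 in control and at 8.93 and 8.84 with SAHA (change -0.13 ± 0.14, adjusted p = 0.651). Atg16l2 stood at 7.40 and 6.72 in control and at 8.01 and 7.59 with SAHA (change 0.74 ± 0.27, adjusted p = 0.225), and its control arrays were the farthest apart of any gene in the set.

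TFEB and TFE3, the transcription factors best known for driving lysosome and autophagy genes, bind an E-box, CACGTG, and prefer it as TCACGTGA, the core of the CLEAR element. RefSeq promoter windows of 300 bases (250 before a start site and 50 after, GRCm38.p6) were found for 31 of the 37 genes, 37 windows in all. CACGTG, which reads the same on both strands, was in 4 of these windows (10.8%), those of Atg3, Atg5, Atg7 and Atg14, against 7.15% of all windows. The longer TCACGTGA, each copy of which also holds a CACGTG, was in 1, that of Atg3, or 2.7% against 0.974%. Neither the forkhead motif GTAAACA nor the ATF4 motif TGATGNAA, each read on both strands, was in any of the 37, against 3.65% and 3.97% of all windows. The stretches around the match are shown for the 3 conjugation genes, since these differ in their values, with the motif in capitals, 5′ to 3′ on the strand of the gene, which is the plus strand for each.
Atg3, chr16:45158731-45158790: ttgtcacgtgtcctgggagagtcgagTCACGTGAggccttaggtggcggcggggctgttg
Atg5, chr10:44268299-44268338: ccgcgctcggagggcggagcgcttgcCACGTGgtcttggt
Atg7, chr6:114670938-114670995: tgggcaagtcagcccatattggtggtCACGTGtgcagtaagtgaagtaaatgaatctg
The Atg3 match begins 72 bases before the start site, and a second CACGTG lies in lower case near the left end of its stretch, 94 bases before the start. The matches of Atg5 and Atg7 begin 14 and 132 bases before it. Atg3 had a change of 0.49, Atg5 of 0.02, Atg7 of 0.04 and Atg14, whose stretch is not shown, of 0.20. Whether a match goes with the change was not tested. A match is a stretch of letters and says nothing of binding in these cells.

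The ATG4 proteases trim LC3 and GABARAP proteins before conjugation and remove them from the membrane afterwards. Atg4a, Atg4b and Atg4c had changes of 0.29, 0.30 and 0.39 and lay above control on both SAHA arrays, as did 21.1% of all genes. Atg4d had -0.05 with overlapping groups. The lowest adjusted p of the 4 was 0.268, for Atg4c.

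The LC3 and GABARAP family, the ubiquitin-like proteins that coat the membrane and bind receptors, had 4 of its 5 genes above control on both SAHA arrays. This was so for 21.1% of all genes and for 31.2% of the 9097 genes above the median signal. Gabarapl1 stood at 11.49 and 11.15 in control and at 11.90 and 11.86 with SAHA, the largest change of the family (0.56 ± 0.15, SE, adjusted p = 0.124, 1.47-fold). Map1lc3a stood at 10.33 and 10.14 in control and at 10.74 and 10.54 with SAHA (0.40 ± 0.15, adjusted p = 0.224). Map1lc3b, whose product LC3B is the usual marker of autophagosomes, stood at 11.95 and 12.09 in control and at 12.43 and 12.29 with SAHA (0.34 ± 0.12, adjusted p = 0.211). Like the rest of the family of 5, these 3 genes had separate groups and an adjusted p above the threshold. Gabarapl2 stood at 10.77 and 10.80 in control and at 11.26 and 10.96 with SAHA (0.33 ± 0.14, adjusted p = 0.303). Gabarap stood at 13.21 and 13.13 in control and at 13.12 and 13.05 with SAHA. Its groups were separate by a narrow margin, and the change of -0.09 had a 95% interval from -0.34 to 0.15.

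All 3 cargo receptors among the 37 genes lay above control on both SAHA arrays, against 21.1% of all genes. Of the 17 other cargo receptors given further on, 7 lay above control, 2 lay below and 8 had overlapping groups. Calcoco1, a receptor for parts of the endoplasmic reticulum and Golgi, stood at 6.91 and 6.68 in control and at 7.98 and 7.41 with SAHA. Its change of 0.90 ± 0.22 (SE, adjusted p = 0.110) was 1.86-fold, the largest of the 37 genes. Nbr1, which gathers ubiquitinated cargo, stood at 10.17 and 10.03 in control and at 10.50 and 10.51 with SAHA (0.41 ± 0.13, adjusted p = 0.183). Tax1bp1, a ubiquitin-binding receptor that also dampens NF-kB signalling, stood at 11.07 and 11.43 in control and at 11.44 and 11.59 with SAHA (0.27 ± 0.16, adjusted p = 0.430). In Tax1bp1 the lower SAHA array lay just above the higher control array.

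**Figure D2:**
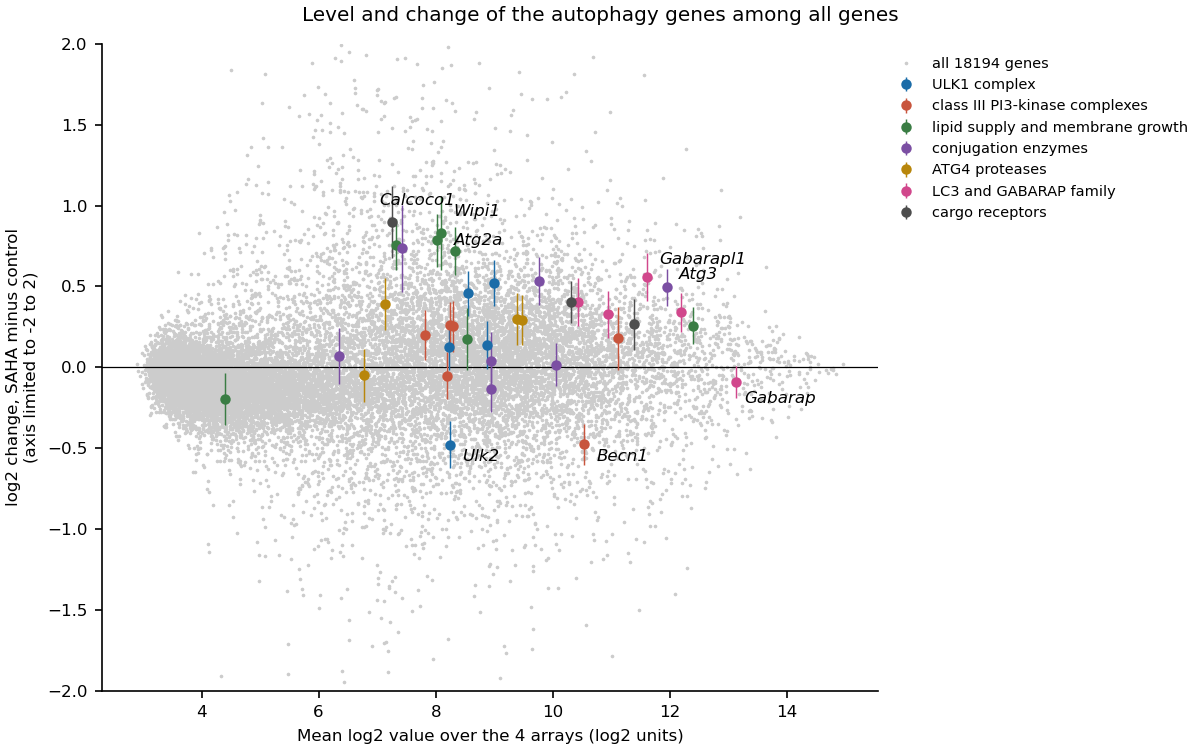
Change between SAHA and control (vertical axis, log2 units, limited to -2 to 2) against the mean level over the 4 arrays (horizontal axis, log2 units). Grey points are all 18194 genes, coloured points the 37 autophagy genes by role, and bars the SE of the change. The autophagy genes lie between -0.48 and 0.90, inside the cloud of genes of like level, with 30 of 37 above 0.

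The smallest absolute change among the 405 genes past the threshold was 0.57, and their median was 1.17. The SE of the 37 genes ran from 0.10 to 0.27. For a single gene, exact permutation of 2 against 2 arrays (two-sided) gives no p below 0.333, and precision is limited by so few arrays.

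A second reading came from the other probe sets of the same genes, which share the RNA of the same arrays. Whether their probes overlap in sequence was not examined. The 37 genes had 88 probe sets, of which none passed the threshold when each of the 34958 probe sets with 1 symbol was tested on its own, where 389 did. For 25 genes there were 45 further probe sets that stayed over the 25th percentile on all 4 arrays, and 36 of the 45 had the sign of the chosen one. Of 22 further probe sets brighter than the median gene, 19 had the same sign. With the next brightest probe set of each of the 25 genes, 16 changes were above 0 and 9 below, with a median of 0.21 against 0.34 for the chosen ones.

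Map1lc3b had the same sign in all 4 of its probe sets. The chosen one gave 0.34, the lowest, and the others 0.49, 0.54 and 0.63, the last from a dim probe set at a mean level of 4.70. The second probe set of Gabarapl1 gave 0.60 and that of Map1lc3a 0.40, which matters because the chosen ones, of the suffix types s_at and x_at, can share sequence with other transcripts. Tax1bp1 had 0.36, 0.37 and 0.61 from its other probe sets, and Becn1 had -0.52 from its next one, 0.32 log2 units dimmer. In each of these 5 genes the brightest and the next brightest probe set had the same sign, and neither passed the threshold.

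In other genes the value differed with the probe set. Wipi2 was read at 8.33 by the chosen probe set and at 8.20 by the next, with changes of 0.72 and 0.29. Wipi1 had 6 probe sets, whose changes ran from -0.04 for the second brightest to 1.21 for the third, where the values were 6.73 and 6.45 in control and 8.04 and 7.54 with SAHA. Atg2b gave 0.76 from the chosen probe set and 0.23 and -0.11 from 2 much dimmer ones, and 0.29 with all 3 averaged (adjusted p = 0.257). Ulk2 gave -0.48 from the chosen probe set and -0.25 from the next, only 0.15 log2 units dimmer, and Ulk1 gave 0.52 and 0.11. Ambra1, at 0.25 by the chosen probe set, was read at 0.75 and 0.66 by dimmer ones. The second probe sets of Calcoco1, Atg3 and Gabarapl2 gave -0.12, -0.11 and -0.10 at levels of 4.36 to 4.79, far under the chosen ones.

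**Figure D3:**
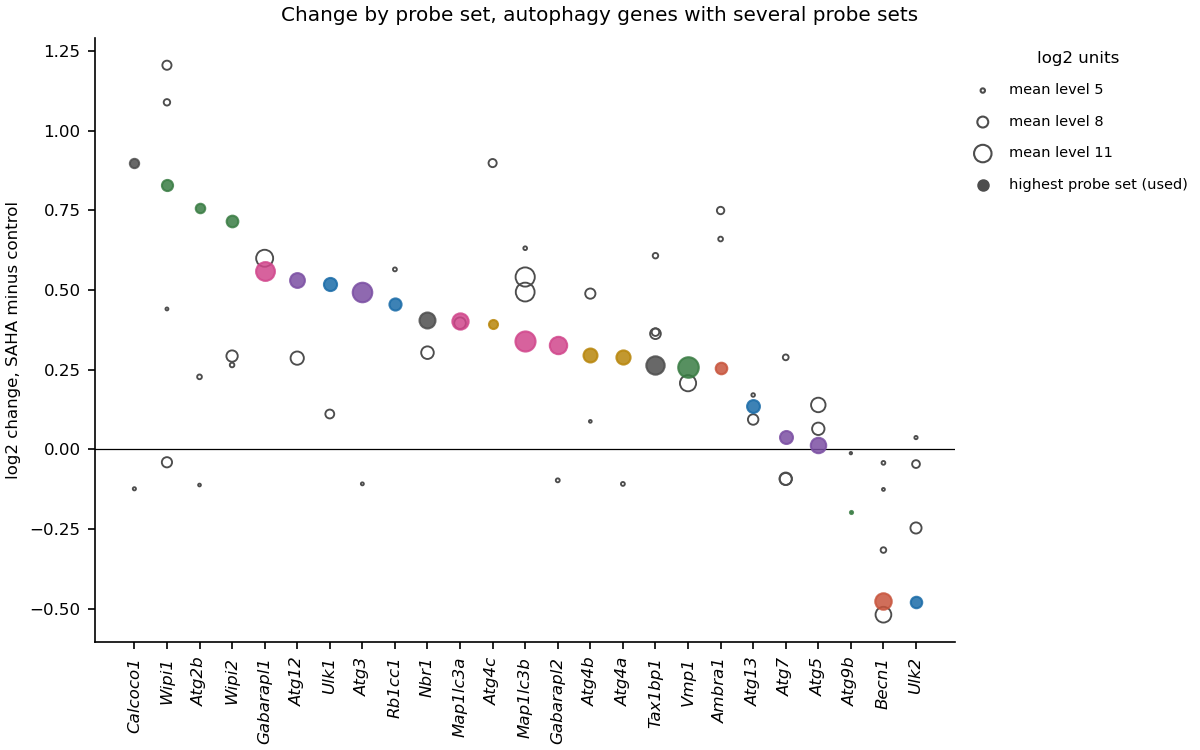
Change between SAHA and control (vertical axis, log2 units) for each probe set of the 25 genes that have more than 1 staying over the 25th percentile on all 4 arrays. Filled circles are the brightest probe set, used throughout and coloured by role, open circles the others, and a larger circle means a higher mean level. The probe sets of Gabarapl1 and of Map1lc3a lie close together. Those of Map1lc3b run from 0.34 to 0.63, while those of Wipi1 spread from -0.04 to 1.21.

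The other genes of the pathway, were grouped in 6 lists. Of 97 listed genes 95 were analysed, and 5 passed the threshold (5.26%, against 2.23% of all genes), 4 higher and 1 lower with SAHA. Rragd encodes RagD, a GTPase that holds mTORC1 at the lysosome and is itself a known TFEB target. It stood at 5.46 and 5.08 in control and at 6.92 and 7.00 with SAHA, a rise of 3.23-fold (log2 change 1.69 ± 0.18, SE, adjusted p = 0.0148). Its other 2 probe sets had values under the 25th percentile of their arrays. When all 3 were averaged the change was 0.41 and the call was lost (adjusted p = 0.142).

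Among 17 other cargo receptors 2 rose and 1 fell, with a list median of 0.15. Ccpg1, a receptor for the endoplasmic reticulum, stood at 8.53 and 8.60 in control and at 9.90 and 9.68 with SAHA, a rise of 2.33-fold (1.22 ± 0.15, adjusted p = 0.0205). Bnip3, a receptor for mitochondria, stood at 9.72 and 9.85 in control and at 10.93 and 10.72 with SAHA, a rise of 2.06-fold (1.04 ± 0.14, adjusted p = 0.0270). Ncoa4, which carries ferritin into autophagosomes, stood at 12.26 and 12.38 in control and at 11.60 and 11.53 with SAHA, a fall of 1.69-fold (-0.76 ± 0.12, adjusted p = 0.0363). In each of these the groups were well apart, and Ccpg1 and Ncoa4 each had a second probe set in the same direction. With probe sets averaged, Ncoa4 had -0.86 and was not called (adjusted p = 0.0617). Promoter windows were found for 82 of the 95 genes, 103 windows in all. CACGTG was in 15 of these (14.6%), against 7.15% of all windows. Among the 5 called genes it was found for Bnip3 only, and whether each of the 5 had a window is not given here. The Bnip3 match begins 108 bases before the start site. Its stretch is shown on the minus strand, that of the gene, with the motif in capitals.
Bnip3, chr7:138909583-138909640: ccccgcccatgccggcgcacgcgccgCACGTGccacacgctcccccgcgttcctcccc
Sqstm1 (p62), the best known receptor, was named after its values were seen and had a change of -0.06 at 13.2 to 13.4 log2 units.

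Of 17 genes for fusion with the lysosome Tecpr1 rose. Its product joins autophagosomes to lysosomes through ATG5 and ATG12. Tecpr1 stood at 10.33 and 9.70 in control and at 11.42 and 11.16 with SAHA, a rise of 2.42-fold (1.28 ± 0.23, adjusted p = 0.0480). The call sat at the threshold and was lost in 5 other settings that kept the threshold and all 4 arrays, among them the fit without the intensity trend (adjusted p = 0.0586). Its other 2 probe sets gave 1.21 and 1.26, and the first of these passed when tested on its own (adjusted p = 0.0263). The list had a median of 0.10. Vps33a, of the HOPS tethering complex, had -0.74 (adjusted p = 0.0636). Of the SNARE proteins that act together in this fusion, Stx17 had 0.49, Snap29 0.20 and Vamp8 -0.74. Their adjusted p-values were 0.238, 0.531 and 0.166, and these genes were picked with their values already known. For Stx17 the sign depended on the probe set. Its next brightest, at 7.52 against 7.75, gave 0.38. Those at 7.47 and 6.84 gave -0.11 and -0.20, each with both SAHA arrays below control. With its probe sets averaged, Stx17 was at 0.14 (adjusted p = 0.599). The dimmer Snap29 probe sets gave 0.08 and 0.05 with overlapping groups.

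None of the 17 further genes of autophagosome formation passed the threshold, nor any at an unadjusted p under 0.05, where 18.1% of all genes did. The list had a median of -0.02. The widest values were 0.64 for Bcl2, which binds Beclin 1, and -0.52 for Dapk1, a kinase acting on Beclin 1, both with overlapping groups. Without control replicate 1 the value of Dapk1 was 0.0082. Of 8 mitophagy genes none passed and 1 was under 0.05 unadjusted (list median -0.02), with Pink1 at -0.35 and the deubiquitinase Usp30 at 0.34. In the list of 29 genes of mTORC1 and AMPK control, Rragd passed alone and the median was 0.00. The related GTPase gene Rraga had 1.02 ± 0.32 (adjusted p = 0.175), with 9.46 and 8.76 in control and 10.54 and 9.74 with SAHA.

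None of the 7 transcription factors of autophagy genes passed, and 3 were under 0.05 unadjusted, against 18.1% of all genes. Foxo3 had a change of 0.65 (adjusted p = 0.119) and Atf4 of -0.57 (adjusted p = 0.197), and in both the groups were separate. The next brightest Foxo3 probe set, at 8.37 against 8.52, gave 0.35, and a dim one at 5.04 gave -0.25. For Atf4 the next brightest gave -0.57 with overlapping groups, and the dimmest gave -0.20. Tfeb stood at 8.71 and 8.30 in control and at 8.52 and 8.42 with SAHA, a change of -0.04. Its relatives Tfe3 and Mitf had -0.26 and -0.37, lower than control on both SAHA arrays; these 3 were named after their values were seen.

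Each of the 5 calls among these 95 genes was lost when either SAHA array was left out, a fit in which the lone SAHA array is assumed to vary as the control arrays do. None of the 95 passed without SAHA replicate 1 or without SAHA replicate 2, while 6 passed without control replicate 1 and 3 without control replicate 2, where Tecpr1 (adjusted p = 0.0542) and Ncoa4 (adjusted p = 0.0845) were not among them. The changes of Rragd, Ccpg1, Bnip3 and Tecpr1 were still 0.94 or more in each of the fits without a SAHA array, and that of Ncoa4 was -0.79 and -0.72. Of all 18194 genes 31 passed without SAHA replicate 1 and 90 without SAHA replicate 2.

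**Figure D4:**
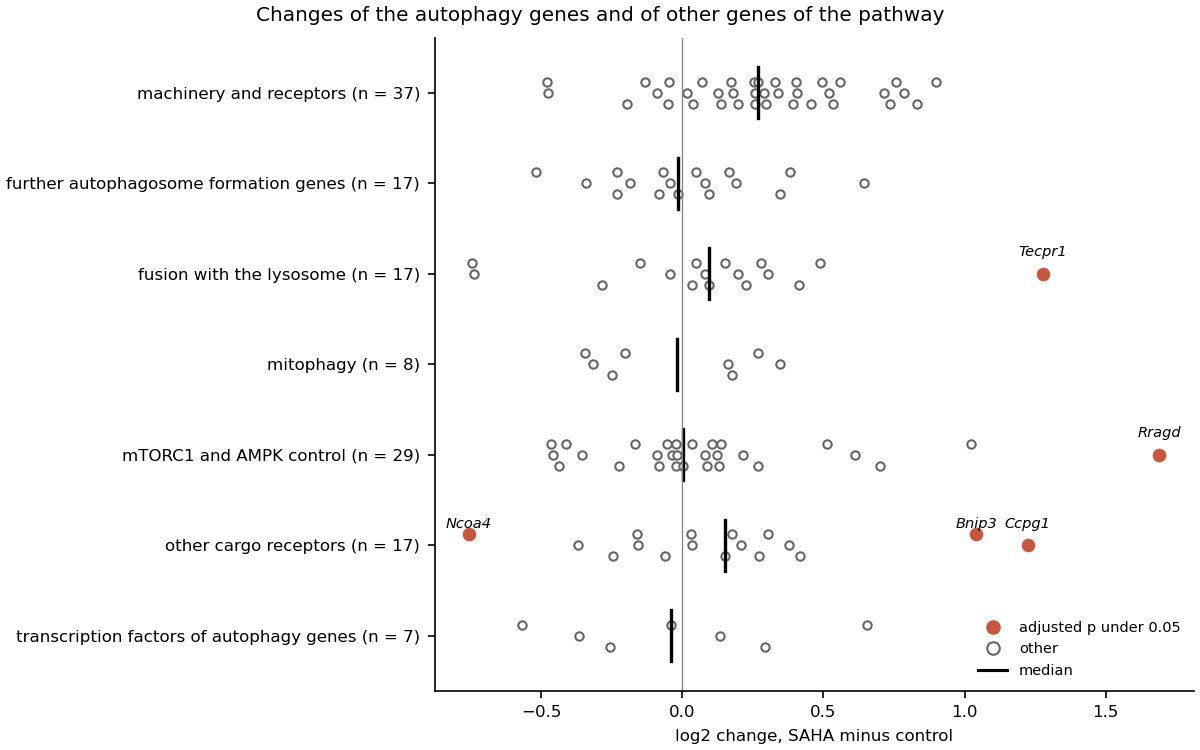
Change between SAHA and control (horizontal axis, log2 units) for the 37 genes of the machinery and receptors and for the 95 genes of the other lists, 1 point a gene. Filled points passed the threshold (limma, adjusted p under 0.05) and are named, and a black line marks the median of a list. The machinery has no called gene and the highest median, 0.27, while the 5 called genes lie in 3 of the other lists.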

How the data were processed

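Values of 4 Affymetrix arrays were used as the authors deposited them, in log2 units for each probe set. The log2 scale was read from the values; per the submitters' processing notes R 2.7 was used, and the summarisation and normalization are not given in the sources used here. Array medians lay between 5.34 and 5.35, and the deposited normalization was kept.

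Of 45101 probe sets 34958 carried 1 gene symbol in the platform annotation; symbols were updated through the Entrez identifier where RefSeq held it (34754). The brightest probe set of each gene gave 18194 genes, which were all tested with limma 3.58.1 in R 4.3.3 (lmFit, eBayes with intensity trend, two-sided, Benjamini-Hochberg). No filter or covariate was used. A fold is 2 to the power of the log2 change. Tested on simulated arrays over 18194 genes, the fit recovered 81.0% of the genes given a 4-fold change, with 2.64% false calls. The genes, lists and tests were chosen with earlier results of these data known. All autophagy genes are named; values per array are given for the LC3 and GABARAP family, the receptors, genes past the threshold and the 6 largest rises and up to 6 falls with separate groups, and of other lists the calls and the 2 largest changes.

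Alternatives were the moderation, quantile normalization, median centring, an offset of 32, a filter at the median level, other uses of the probe sets, each array left out, a block for the replicate number and a threshold of 0.01.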

Additional observations from a re-analysis of the deposited data

How the results depend on the processing

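None of the 37 autophagy genes passed the threshold in any of the other settings tried except with replicate number as a block, where 18 passed (16 higher, 2 lower), together with 3616 of all genes and 29 of the other pathway genes. The labels do not say what a shared number means. Same-numbered arrays deviated together from their group means (correlation 0.57 over all genes, which are not independent replicates), and with 2 pairs this does not settle a pairing. Among all genes 226 passed in the fit to genes above the median level, 253 where every probe set was tested and 8 at a threshold of 0.01, against 405, and 31 to 529 passed without an array. Of the other pathway genes 3 passed among genes above the median level, 0 at 0.01, and 0 to 6 without an array. The median change of the autophagy genes ran from 0.21, with the next brightest probe set (a setting chosen after seeing the data), to 0.33, without control replicate 2. Over the 14 settings that kept the probe set choice or averaged the probe sets, the sign turned in 8 of the 37 genes, none with a change over 0.20 either way. With the next brightest probe set larger changes turned too: Calcoco1 was at -0.12, Wipi1 at -0.04, Atg3 and Atg4a at -0.11, Gabarapl2 at -0.10 and Atg7 at -0.09. With quantile normalization Atg5 was at -0.025 and Atg7 at -0.0043. Over the fits without an array Atg10 ran from -0.075 to 0.21, Atg4d from -0.15 to 0.049, Atg5 from -0.043 to 0.074, Atg7 from -0.16 to 0.24, Atg9a from -0.020 to 0.37, Atg9b from -0.41 to 0.015, Pik3c3 from -0.11 to 0.0060 and Uvrag from -0.023 to 0.38. Among other pathway genes Dapk1 ran from -1.05 to 0.0082, Tfeb from -0.25 to 0.17 and Sqstm1 from -0.17 to 0.041, and Sqstm1 was at 0.076 with its probe sets averaged. The cause of these turns was not tested.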
